A study of Homo sapiens with 9 samples.

Results

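The constitutive subunits of the 26S proteasome were followed at the RNA level in cells overexpressing the transcription factor NFE2L1 or the form called NFE2L1DC. Their 33 genes were taken by name from the 58174 genes of the deposited table, as the known constitutive subunits rather than by their values, although earlier results of these data were known when the family was chosen. The 20S core was represented by the 7 genes of the alpha ring (PSMA1 to PSMA7) and the 7 constitutive genes of the beta ring (PSMB1 to PSMB7). The 19S regulatory particle was represented by 10 genes of the base (PSMC1 to PSMC6, PSMD1, PSMD2, PSMD4 and ADRM1) and 9 genes of the lid (PSMD3, PSMD6, PSMD7, PSMD8, PSMD11, PSMD12, PSMD13, PSMD14 and SEM1). RNA was sequenced from 9 libraries labelled HepG2, a line of human liver cancer cells grown in high-glucose medium with serum. The 3 control libraries, labelled wild type, came from cells that the protocol names by the vector pLVX, and the other groups were 3 libraries of the line overexpressing NFE2L1 and 3 of the line overexpressing NFE2L1DC. The protocol writes the latter with a delta before the C without stating how much is deleted, and the labels do not say whether a line was 1 clone or a pool of transduced cells. All values are TPM, a level normalised for transcript length and for the library total.

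The 26S proteasome degrades proteins tagged with ubiquitin. Its core is a barrel of stacked rings, with the outer alpha rings gating the entrance and the inner beta rings carrying the proteolytic sites, and the base unfolds substrates with a ring of ATPases while the lid removes the ubiquitin chain. NFE2L1, also called NRF1, sits in the membrane of the endoplasmic reticulum and, after release and processing, is known for raising transcription of proteasome subunit genes when proteasome activity is impaired, through DNA elements of the antioxidant response type.

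NFE2L1 itself was at 104, 81.7 and 64.0 TPM in the 3 control libraries, at 207, 181 and 354 TPM in the NFE2L1 libraries and at 445, 427 and 472 TPM in the NFE2L1DC libraries, so that each overexpressing library was above every control library (log2 change 1.52 ± 0.24 SE, limma adjusted p = 0.00582, and 2.44 ± 0.24, limma adjusted p = 0.0014). A gene-level table does not separate the introduced from the cells' own NFE2L1 transcript. All 9 liver markers examined (ALB, AFP, APOA1, APOB, TTR, SERPINA1, TF, FGB and HNF4A) were under 1 TPM in every library, with a summed level of at most 0.319 TPM in any library, and the label HepG2 was therefore not borne out by these genes. Of 7 markers of other cells, PTPRC was listed at 0 in every library, PECAM1, VWF and KRT5 were under 1 TPM, COL1A1 was detected in every group and CD68 rose with NFE2L1 (log2 change 0.70, limma adjusted p = 0.00335). DCN was at 1.04, 1.49 and 5.65 TPM in control, 1.21, 1.10 and 1.86 TPM with NFE2L1 and 0.456, 0.267 and 0.330 TPM with NFE2L1DC. Its highest value was in control replicate 3, and the NFE2L1DC libraries lay below every other library without passing the test against control (log2 change -1.26 ± 0.38, limma adjusted p = 0.103). The summed level of these 7 genes was 42.9 to 48.1 TPM in control, 50.9 to 60.3 TPM with NFE2L1 and 44.3 to 47.4 TPM with NFE2L1DC, and their part in the results was not tested. In bulk RNA such as this, a change in the make-up of the cells and a change in RNA per cell cannot be told apart. The table holds no read counts, so depth is unknown and no counting interval can be given. Control replicate 3 stood apart from the other controls. On the first principal component (41.9% of the variance) it lay at -5 and the other 2 controls at 43.8. The NFE2L1 libraries lay at -21.3, -19.7 and -23 and the NFE2L1DC libraries at -19.2, 1.2 and -0.6. On that component control replicates 1 and 2 thus stood apart from every other library. On the second (13.4%) control replicate 3 lay at 37.9 and the other libraries between -10.9 and 3.6. The counts of called subunits, and the subunits whose call with NFE2L1 turned on control replicate 3, are given with and without it.

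Levels of the 33 subunits in control cells spanned a wide range (shown in the plot of TPM by library). PSMB4, a structural subunit of the beta ring, was the highest at 630.1 ± 29.5 TPM (SD, n = 3, as for all TPM means), and PSMD12, a scaffold subunit of the lid, the lowest at 11.6 ± 6.32 TPM. PSMA7 came next at 487 ± 13.9 TPM, followed by PSMB7, PSMB3 and PSMB6, and PSMD4 was the highest of the 19S genes at 329 ± 28.8 TPM. Only PSMB4, PSMD4, PSMA5 and SEM1 had control ranges that did not overlap that of the next lower subunit, so most neighbours in this order did not differ beyond their spread. The lowest control levels were those of PSMD12, PSMC6 (14.7 ± 6.75 TPM), SEM1 (27.4 ± 0.924 TPM), PSMD6 (28.1 ± 3.40 TPM) and PSMD1 (30.4 ± 12.1 TPM), all 19S genes.

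Per subunit, the beta ring stood highest and the lid lowest in every library. The mean level per subunit in control was 365 ± 25.1 TPM in the beta ring, 153 ± 9.21 TPM in the alpha ring, 143 ± 3.93 TPM in the base and 90.6 ± 1.90 TPM in the lid. With NFE2L1 the same means were 401 ± 20.3, 192 ± 11.4, 169 ± 7.38 and 111 ± 3.66 TPM. In the NFE2L1DC libraries they were 382 ± 8.49, 175 ± 15.1, 159 ± 4.52 and 102 ± 0.236 TPM. The alpha ring, base and lid were higher in each of the 3 NFE2L1 libraries than in any control library, whereas the beta ring ranges overlapped. All 33 subunits together took 0.586% ± 0.0152 of the TPM in control, 0.684% ± 0.0301 with NFE2L1 and 0.641% ± 0.0111 with NFE2L1DC, and neither overexpressing group overlapped control.

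**Figure D1:**
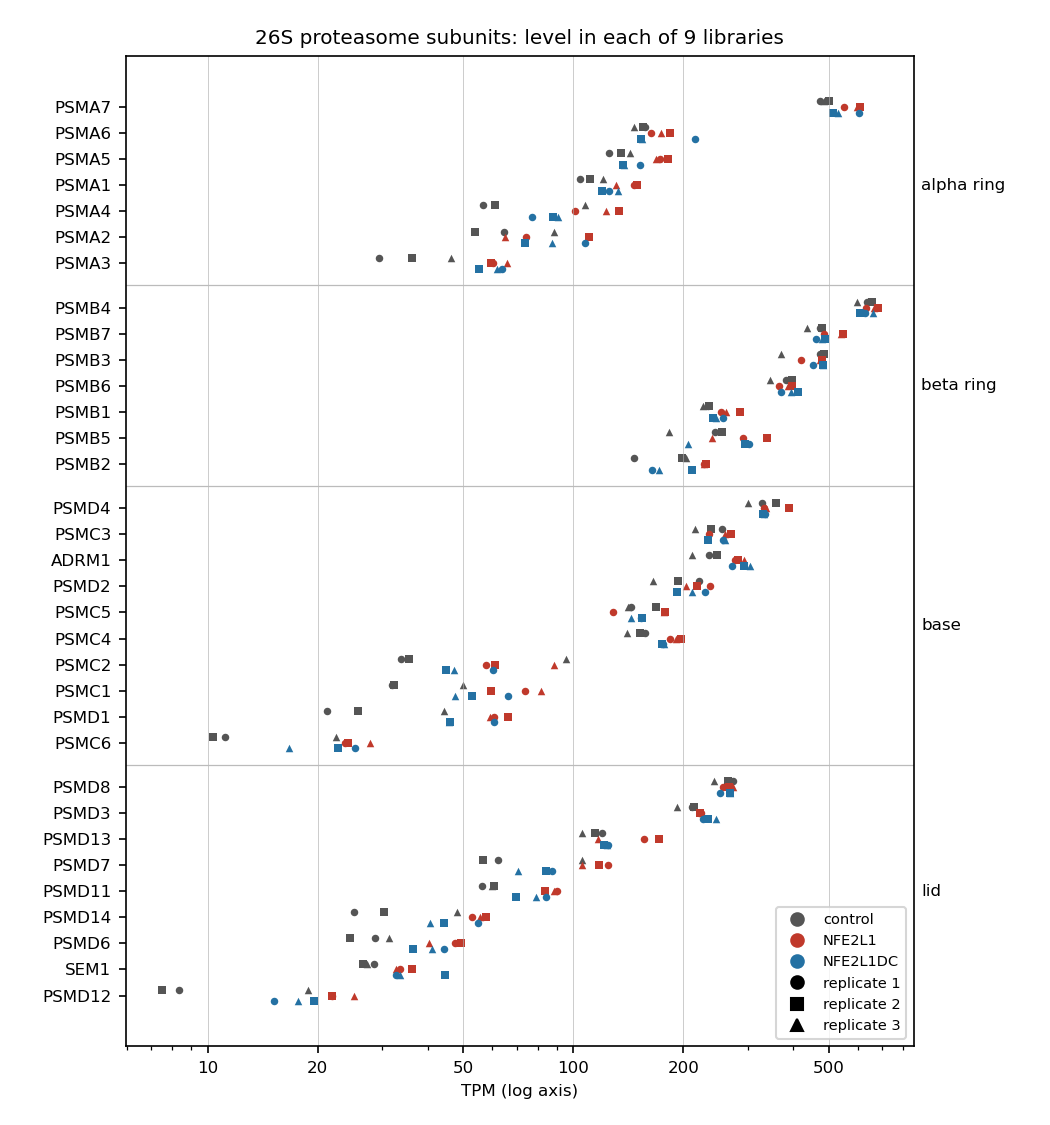
Level of each of the 33 subunits in TPM (log axis) in each of the 9 libraries, ordered within subcomplex by the control mean; colour marks the group and symbol the replicate. PSMB4 lies near 630 TPM and PSMD12 near 11.6 TPM in control, and in PSMD12, PSMC2 and PSMD1 the triangle of control replicate 3 lies to the right of the other controls.

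**Figure D2:**
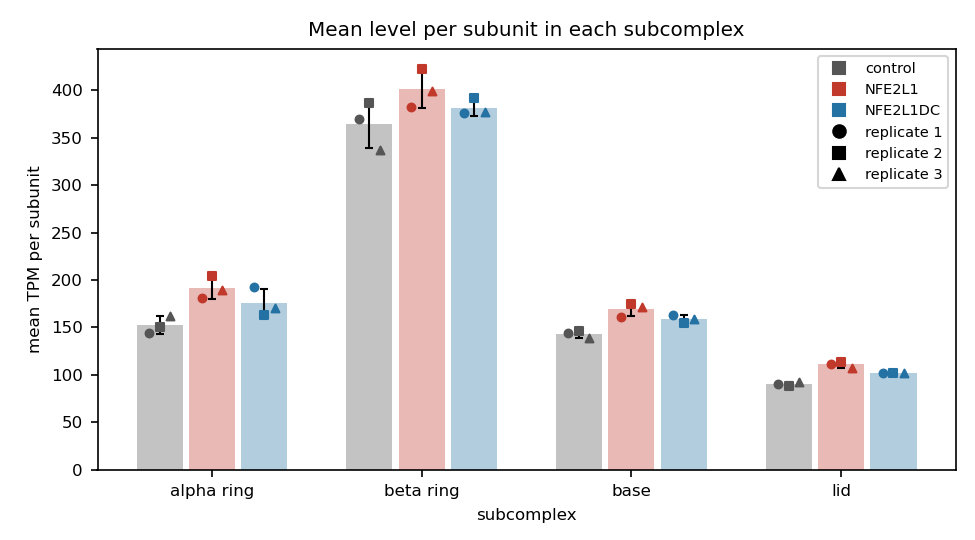
Mean TPM per subunit in each subcomplex (linear axis from 0); bars are group means of 3 libraries, error bars SD, and points the libraries. The beta ring stands at 365 to 401 TPM and the lid at 90.6 to 111 TPM.

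The ratio of core to regulatory particle was also read per library. Mean TPM per 20S subunit over mean TPM per base subunit was 1.81 ± 0.0255 in control, 1.75 ± 0.0411 with NFE2L1 and 1.75 ± 0.0367 with NFE2L1DC. The corresponding ratio of 20S to lid was 2.86 ± 0.163, 2.67 ± 0.132 and 2.72 ± 0.0495. The ranges of both ratios overlapped between control and each overexpressing group. PSMD4, a ubiquitin receptor, sits where base and lid meet, and when counted with the lid it brought the 20S to lid ratio to 2.26 in control, 2.19 with NFE2L1 and 2.22 with NFE2L1DC.

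Promoter windows from RefSeq (GRCh38.p14), reaching from 250 bases before a transcript start to 50 bases after it, were found for 28 of the 33 genes, 37 windows in all. PSMA7, PSMB1, PSMB6, PSMB7 and PSMD4 had none in the table. The sequence TGACNNNGC followed by A, the core of antioxidant response type elements, was searched on both strands. It occurred in 3.18% of all 35116 windows of this length, in at least 1 window of 4.04% of the genes tested that had a window, and in 7 of the 28 subunit genes (25%). For 6 of them the stretch is printed as read on the gene's strand, 30 bases long, to show how the matches compare, with the match in capitals (in PSMD3 and PSMC5 the match is on the opposite strand and its reverse complement is capitalised).
PSMA4 (chr15:78540650-78540679, plus strand): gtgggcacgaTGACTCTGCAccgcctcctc
PSMB3 (chr17:38752627-38752656, plus strand): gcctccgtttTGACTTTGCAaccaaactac
PSMC5 (chr17:63827653-63827682, plus strand): cgaccggatcTGCTGTGTCAgcgccgccct
PSMD1 (chr2:231056887-231056916, plus strand): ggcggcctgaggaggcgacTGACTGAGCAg
PSMD3 (chr17:39980827-39980856, plus strand): ggggtttgcagcTGCTCCGTCAtcgtgcgg
PSMD12 (chr17:67366723-67366752, minus strand): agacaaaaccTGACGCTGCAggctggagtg

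The matches began at base 290 of the 300-base window in PSMD1 and base 283 in PSMD3, both after the transcript start, and between bases 86 and 193 in the other 4 genes printed. PSMA4 and PSMC5 also had windows with earlier transcript starts, and those windows held no match. The shorter sequence TGACNNNGC, which lies within the longer one, occurred in 13.3% of windows, 19.8% of the genes tested and 9 of the 28 subunit genes (32.1%). CCAAT occurred in 34.6% of windows, 43.2% of the genes tested and 17 of the 28 (60.7%). A match describes letters in this window and says nothing about binding. The 250 bases before the start of PSMD12, the lowest subunit in control and among those that changed most with NFE2L1, hold 1 match (capitals), and those of PSMD11, the subunit with the smallest adjusted p, hold none.
PSMD12 (chr17:67366578-67366827, minus strand): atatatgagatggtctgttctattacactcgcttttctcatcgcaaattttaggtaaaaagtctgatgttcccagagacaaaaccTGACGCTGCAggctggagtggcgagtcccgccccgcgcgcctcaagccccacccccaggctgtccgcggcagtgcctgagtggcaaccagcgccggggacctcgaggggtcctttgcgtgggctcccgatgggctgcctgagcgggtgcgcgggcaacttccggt
PSMD11 (chr17:32444260-32444509, plus strand): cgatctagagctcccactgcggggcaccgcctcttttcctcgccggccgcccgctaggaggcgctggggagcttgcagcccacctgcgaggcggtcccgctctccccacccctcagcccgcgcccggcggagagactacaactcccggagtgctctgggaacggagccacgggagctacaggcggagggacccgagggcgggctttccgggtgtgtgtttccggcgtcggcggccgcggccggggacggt

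With NFE2L1, 10 of the 33 subunits rose and none fell (limma on log2(TPM + 1), Benjamini-Hochberg adjusted p under 0.05 over the 14118 genes tested; all 33 subunits passed the filter of 1 TPM in at least 3 libraries). Among all genes tested, 7.83% rose and 2.57% fell by the same rule. The 10 were PSMA1, PSMA3 and PSMA5 in the alpha ring, PSMC1, PSMC4, PSMD1 and ADRM1 in the base and PSMD6, PSMD11 and PSMD12 in the lid, and no beta ring gene passed the test. All 33 log2 changes were positive, against 68.7% of all genes tested, and the median was 0.34 against 0.17 over all genes. In 20 subunits every NFE2L1 library was above every control library (22.6% of all genes tested), and in none was every NFE2L1 library below (9.53%). After median-of-ratios scaling, which brought the median of all genes to 0.017, 24 of the 33 changes were positive, 5 subunits passed (PSMA3, PSMC1, PSMD1, PSMD6 and PSMD12) and none fell. The same scaling moved the calls over all genes from 1105 higher and 363 lower to 1018 in all, of which 465 were lower. With GC content and length adjusted for, 26 of the 33 changes were positive and 8 subunits passed. PSMA7 and PSMD14, not called in the main fit, were among the 8. Over all genes that fit called 1646, of which 770 were lower.

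**Figure D3:**
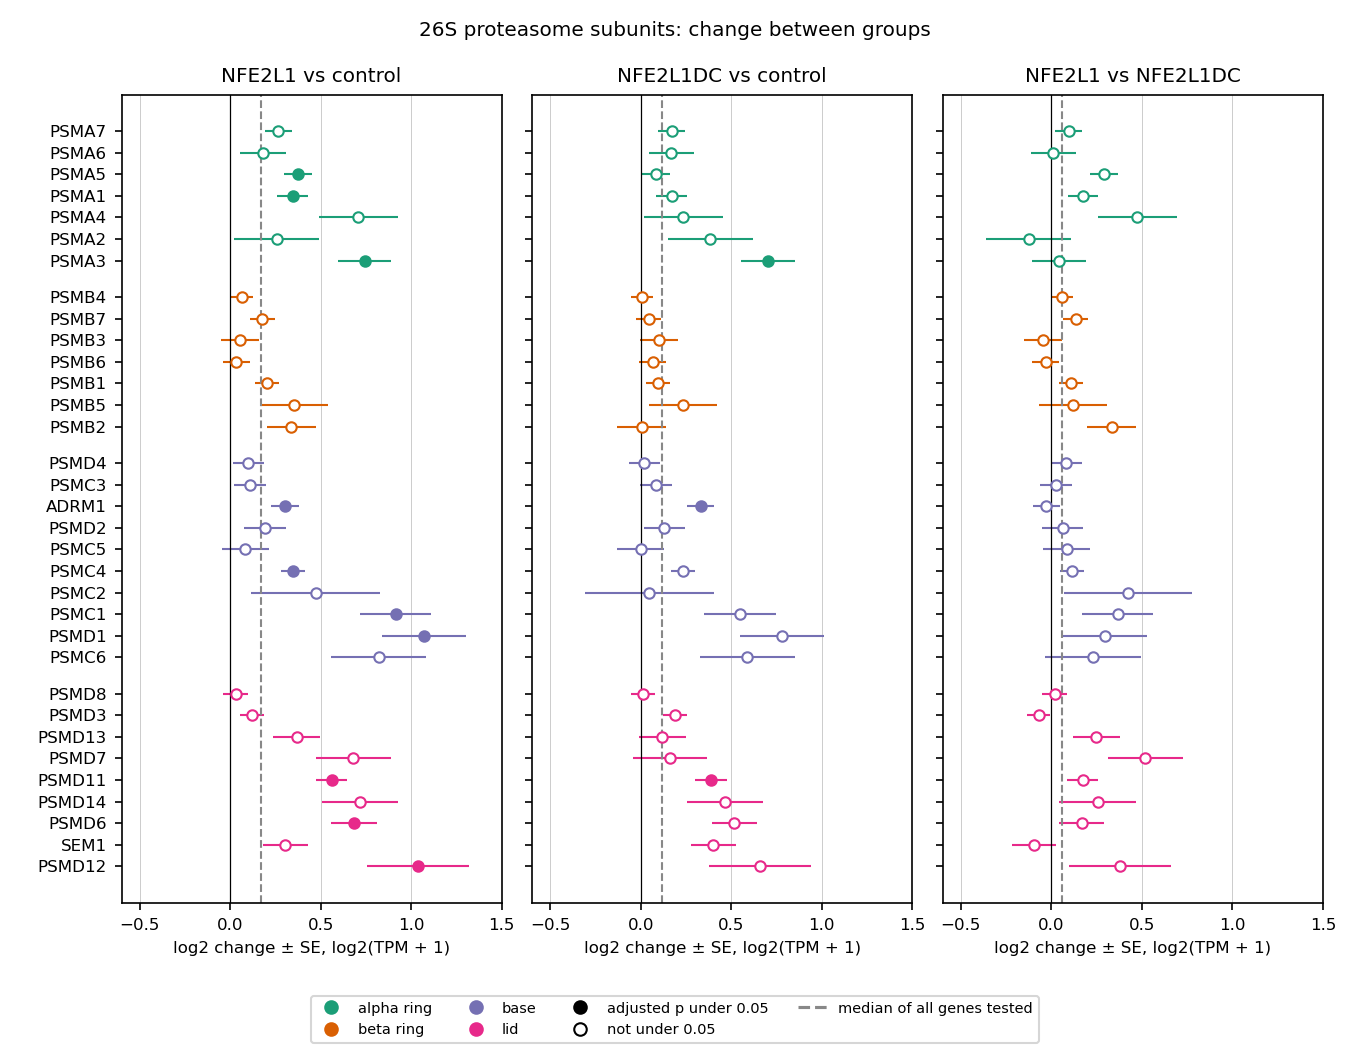
Log2 change of each subunit ± SE on the log2(TPM + 1) scale in the 3 comparisons, filled where the adjusted p was under 0.05; the dashed line is the median of all genes tested. In NFE2L1 against control all 33 points lie above 0 and 10 are filled, in NFE2L1DC against control 3 are filled, and in NFE2L1 against NFE2L1DC none is.

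The alpha ring genes, whose products form the gated outer ring of the core, had a median log2 change of 0.34, with 3 of 7 called. PSMA3 (ENSG00000100567, chr14:58244831-58272012, gene span on GRCh38 as for all genes located here) was at 29.4, 36.2 and 46.2 TPM in control and at 60.5, 59.7 and 65.9 TPM with NFE2L1. Every NFE2L1 library lay above the highest control, and PSMA3 rose 1.66-fold (log2 change 0.74 ± 0.15 SE, limma adjusted p = 0.0163). PSMA5 (ENSG00000143106, chr1:109399031-109426427) was at 125, 135 and 143 TPM in control and 173, 181 and 169 TPM with NFE2L1, again without overlap. It rose 1.30-fold (log2 change 0.37 ± 0.078, limma adjusted p = 0.0191). PSMA1 (ENSG00000129084, chr11:14504874-14643635) went from 104, 111 and 120.2 TPM to 147, 149 and 131 TPM, a 1.27-fold rise with groups apart (log2 change 0.34 ± 0.084, limma adjusted p = 0.0339). After adjustment for GC content and length, the log2 changes of PSMA5 and PSMA1 were 0.00070 and 0.15 and neither passed (limma adjusted p = 0.998 and 0.263).

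Among the other alpha ring genes, PSMA4 was at 56.7, 61.2 and 108 TPM in control and 101, 134 and 123 TPM with NFE2L1. Its control replicate 3 reached into the NFE2L1 range, and the log2 change of 0.71 did not pass (limma adjusted p = 0.0693). PSMA7, the most abundant alpha subunit, was at 474, 502 and 486 TPM and 552, 609 and 597 TPM, with groups apart but an adjusted p just over the threshold (log2 change 0.27, limma adjusted p = 0.0527). PSMA6 had the smallest change of the ring (0.18), from 157, 155 and 146 TPM to 163, 184 and 174 TPM without overlap. PSMA2 was at 64.6, 54.0 and 88.6 TPM in control and 74.1, 110.3 and 65.1 TPM with NFE2L1, and its groups overlapped.

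The beta ring genes had the smallest median log2 change, 0.18, beside 0.17 over all genes. Under median-of-ratios scaling it was -0.0011 beside 0.017, with 3 of 7 changes positive. With GC content and length adjusted for it was 0.10 beside -0.0075, and against control replicate 3 alone 0.24 beside -0.0063. PSMB5, the chymotrypsin-like protease, was at 243, 255 and 182 TPM in control and 292, 339.7 and 239 TPM with NFE2L1. It had the largest log2 change of the ring, 0.35 ± 0.19, but its lowest NFE2L1 library lay below 2 of the controls (limma adjusted p = 0.231). PSMB6, the caspase-like protease, had the smallest change of the ring (0.033), with 382, 397 and 344 TPM in control and 366, 397 and 386 TPM with NFE2L1. PSMB7, the trypsin-like protease, was at 472, 478 and 437 TPM and 485, 546 and 539 TPM; the groups did not overlap and the change of 0.18 did not pass (limma adjusted p = 0.119). The catalytic genes thus gave values between 0.033 and 0.35 on the log2 scale, none past the threshold in this fit. In 2 of 20 alternatives PSMB5 passed, both with the replicate number as a block, which is not known to pair the samples. PSMB6 and PSMB7 passed in none.

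None of the structural beta genes passed either. PSMB4 was at 638, 655 and 597 TPM in control and 632, 681 and 666 TPM with NFE2L1, overlapping. PSMB2, the lowest of the ring in control, was at 147, 199 and 203 TPM and 228, 231 and 228 TPM, with the NFE2L1 libraries tightly grouped above all controls (log2 change 0.34 ± 0.13, limma adjusted p = 0.129). PSMB3 was at 474, 486 and 370.0 TPM in control and 420.5, 479 and 472 TPM with NFE2L1; control replicate 3 was the lowest of the 9 libraries. PSMB1 also separated the groups (log2 change 0.20) without passing the test.

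In the base, 4 of 10 genes rose and the median log2 change was 0.32. PSMD1 (ENSG00000173692, chr2:231056864-231172827), the large scaffold subunit, showed the largest change of all 33 subunits. It was at 21.2, 25.8 and 44.2 TPM in control and at 60.8, 66.4 and 59.1 TPM with NFE2L1, a 2.04-fold rise (log2 change 1.07 ± 0.23, limma adjusted p = 0.0219). The NFE2L1 libraries lay close together, whereas control replicate 3 was well above the other controls. PSMC1 (ENSG00000100764, chr14:90256495-90275429), an ATPase, was at 32.0, 32.4 and 49.9 TPM and 73.8, 59.7 and 81.7 TPM. It rose 1.88-fold with groups apart (log2 change 0.91 ± 0.20, limma adjusted p = 0.0218). The table lists 13 named pseudogene copies of PSMC1, at 8.94% of its own level in sum, and the sources used here do not say how the authors' counting divided reads among them.

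PSMC4 (ENSG00000013275, chr19:39971005-39981441), another ATPase, was at 157, 152 and 140.1 TPM in control and 183, 197 and 191 TPM with NFE2L1. Its replicates were close and its groups apart, with a 1.27-fold rise (log2 change 0.35 ± 0.067, limma adjusted p = 0.0146). ADRM1 (ENSG00000130706, chr20:62302093-62308862), a ubiquitin receptor that also binds a deubiquitinase, was at 235, 247 and 211 TPM and 278, 282 and 294 TPM. It rose 1.23-fold without overlap (log2 change 0.30 ± 0.076, limma adjusted p = 0.0385). ADRM1 overlaps the coding gene LAMA5, at a mean of 139 TPM, in the annotation. In all, 10 subunits overlap another coding gene, among them PSMA2 (MRPL32 and AC010132.3, 71.3 TPM in sum) and PSMC5 (FTSJ3, 73.4 TPM). The sources used here do not say whether counting used strand.

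Other base genes did not pass. PSMC6 was at 11.2, 10.4 and 22.4 TPM in control and 23.7, 24.1 and 27.7 TPM with NFE2L1, with all NFE2L1 libraries above control and an adjusted p of 0.077 in limma. PSMC2 was at 33.9, 35.5 and 95.3 TPM and 57.7, 61.1 and 88.7 TPM, and its control replicate 3 was the highest of all 9 libraries. Like the other PSMC genes, both encode ATPases of the unfolding ring. PSMC5, with the smallest change of the base (0.084), was at 144, 169 and 141 TPM and 128, 179 and 178 TPM. PSMD4 was at 329, 358 and 300.5 TPM in control and 332, 390.4 and 337 TPM with NFE2L1. The groups of PSMC2, PSMC5 and PSMD4 overlapped, as did those of the remaining base genes PSMC3 and PSMD2 (log2 changes 0.11 and 0.19).

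The lid had the largest median log2 change of the 4 subcomplexes, 0.56, with 3 of 9 genes called and 7 of 9 free of overlap. Against control replicate 3 alone the lid median was 0.27 and that of the base, 0.32, was the largest. PSMD11 (ENSG00000108671, chr17:32444261-32483318), a scaffold that clamps the regulatory particle to the core, had the smallest adjusted p of all 33 subunits. It was at 56.1, 60.7 and 60.1 TPM in control and 90.0, 83.9 and 88.4 TPM with NFE2L1, a 1.48-fold rise (log2 change 0.56 ± 0.087, limma adjusted p = 0.00537). Both groups were tight and far apart. PSMD6 (ENSG00000163636, chr3:64010549-64024010), another scaffold of the lid, was at 28.6, 24.5 and 31.3 TPM and 47.6, 49.3 and 40.3 TPM and rose 1.63-fold without overlap (log2 change 0.68 ± 0.13, limma adjusted p = 0.0111). PSMD12 (ENSG00000197170, chr17:67337916-67366627) was at 8.34, 7.48 and 18.8 TPM and 21.8, 21.8 and 25.1 TPM and rose 1.98-fold (log2 change 1.04 ± 0.28, limma adjusted p = 0.0469). In PSMD12 the third control lay above the other 2 and just under the NFE2L1 range. With GC content and length adjusted for, PSMD6 and PSMD11 no longer passed (log2 changes 0.29 and 0.30, limma adjusted p = 0.267 and 0.0652).

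PSMD14, the deubiquitinase that cuts the chain from the substrate, was at 25.1, 30.3 and 48.1 TPM in control and 52.7, 57.7 and 55.6 TPM with NFE2L1. The groups were apart and the change did not pass (log2 change 0.72 ± 0.21, limma adjusted p = 0.0596). PSMD7, the partner of PSMD14, was at 62.3, 56.5 and 106 TPM and 125, 118 and 106 TPM; the highest control lay just under the NFE2L1 range (limma adjusted p = 0.0653). SEM1, a small acidic subunit, was at 28.4, 26.6 and 27.3 TPM and 33.6, 36.2 and 32.7 TPM, apart by a log2 change of 0.31 (limma adjusted p = 0.135). PSMD14, PSMD7 and SEM1 thus separated the groups without a call. PSMD8, the most abundant lid gene, was at 273, 265 and 243 TPM and 257, 267 and 273 TPM, overlapping, with the smallest change of all 33 (0.030). PSMD3 (0.12) and PSMD13 (0.37) completed the lid, PSMD3 without and PSMD13 with overlap.

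**Figure D4:**
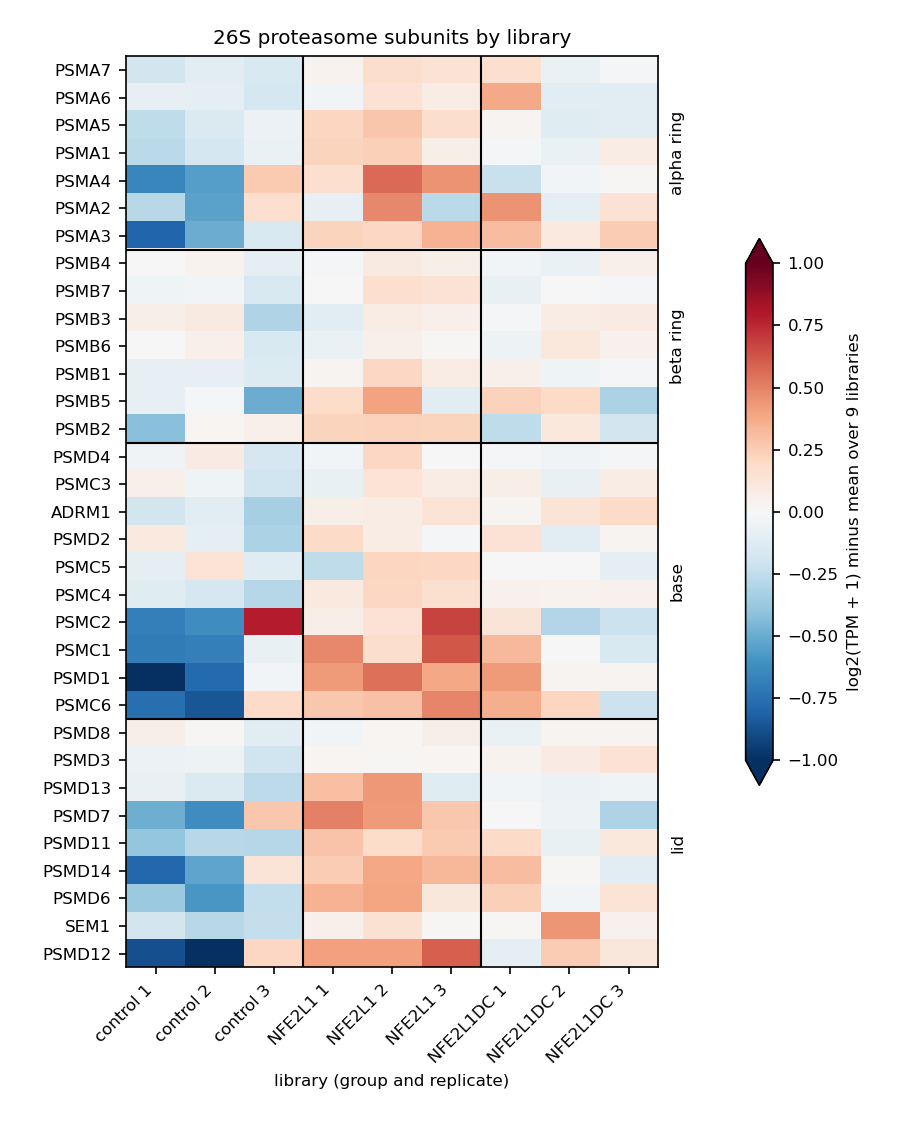
Deviation of each subunit from its own mean over the 9 libraries, on the log2(TPM + 1) scale, with the colour scale cut at 1 and -1; rows are subunits by subcomplex and columns libraries. Control 1 and 2 are blue in the low subunits of the base and lid, and control 3 is red in PSMC2, PSMC6, PSMD7, PSMD14 and PSMD12.

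These counts rested on single libraries. Without control replicate 3, 17 subunits passed in NFE2L1 against control, and without control replicates 1 or 2 in turn 4 and 2 passed. Over the 14118 genes tested, the same fits called 5055, 624 and 510 genes in either direction, against 1468 with all libraries. Leaving out NFE2L1 replicates 1, 2 or 3 left 2, 2 and 3. The count over all genes fell as well, to 560 without NFE2L1 replicate 1. Against control replicate 3 alone, an alternative chosen after seeing the data in which that library is assumed to vary like the other groups, none passed, 31 of 33 changes were positive and the median was 0.24. PSMD1 then had a log2 change of 0.48 and PSMD12 of 0.27, against 1.37 and 1.42 when only that library was left out. PSMD11 had 0.53 and 0.57 in the same 2 fits.

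The 7 subunits that passed without control replicate 3 but not with it were PSMA4, PSMA7, PSMB2, PSMC2, PSMC6, PSMD7 and PSMD14. PSMC2 turned direction, with a log2 change of 0.95 without that library (limma adjusted p = 0.00715) and -0.48 against it alone. PSMA4 had 0.99 without it (limma adjusted p = 0.00125) and 0.13 against it alone, and PSMC6 had 1.15 (limma adjusted p = 0.00199) and 0.16. In the lid, PSMD7 had 0.95 (limma adjusted p = 0.00106) and 0.13, and PSMD14 0.98 (limma adjusted p = 0.0018) and 0.20. All 4 kept a positive sign in both fits. PSMA7 and PSMB2 had 0.26 and 0.42 without that library (limma adjusted p = 0.0395 and 0.0472) and 0.27 and 0.17 against it alone.

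Control replicate 3 was the highest of the controls for 14 subunits and the lowest for 16, against 56.6% and 24.2% of all genes tested. In 5 of 7 alpha ring genes it was the highest and in 6 of 7 beta ring genes the lowest. Over coding genes, the Spearman correlation of a library's deviation with GC content was 0.612 and 0.503 in control replicates 1 and 2 and -0.421 in control replicate 3. It was -0.282, -0.259 and -0.344 in the NFE2L1 libraries and -0.392, -0.042 and 0.189 in the NFE2L1DC libraries. Over the 33 subunits the correlations in the 3 control libraries were 0.666, 0.548 and -0.499. The highest over the lowest subunit was 76.5-fold, 87.5-fold and 31.7-fold in the 3 control libraries and 26.5-fold to 31.1-fold in the NFE2L1 libraries. The part of GC content or of that library in the changes was not tested beyond the fits given here.

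The subunits were also split by level. Of the 16 subunits with a mean over all libraries below the median of 154 TPM, 8 rose and the median log2 change was 0.68, and of the 17 at or above it 2 rose and the median was 0.18. Among all genes tested, at any level, 7.83% rose, and the share among genes of similar level was not computed. As a description over 33 genes that share the same 9 libraries, the Spearman correlation of the log2 change with the mean level was -0.81, with GC content -0.56 and with transcript length 0.50. Over 11445 coding genes tested the corresponding values were -0.13, -0.44 and 0.22. In NFE2L1DC against control, the values over the subunits were -0.70, -0.39 and 0.36.

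**Figure D5:**
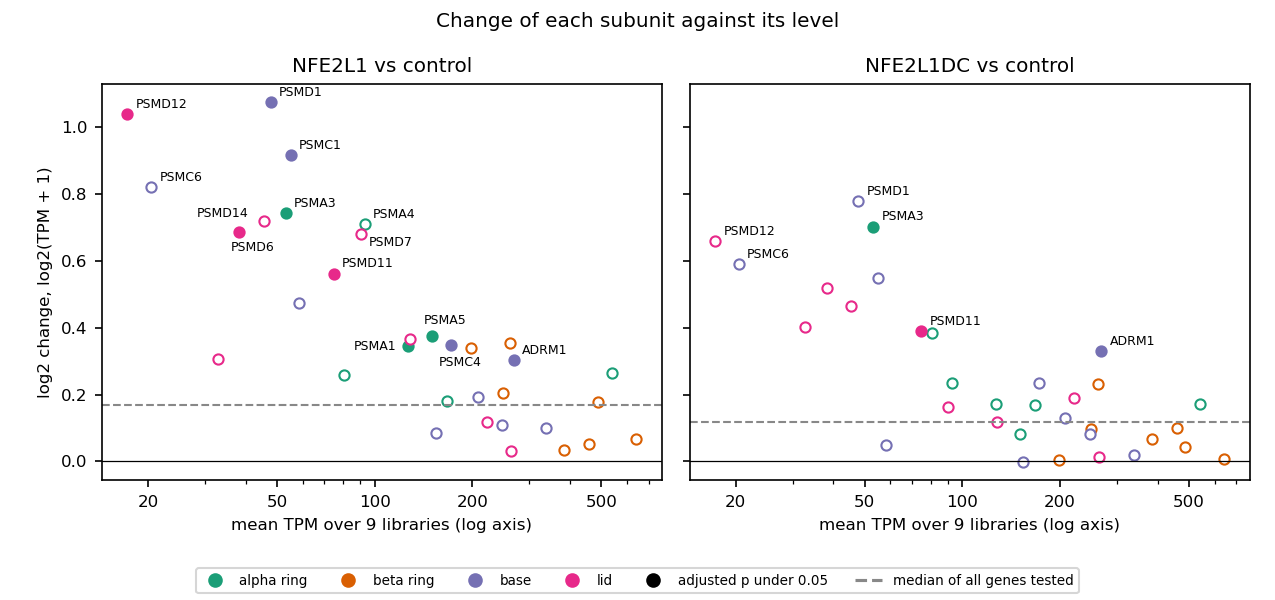
Log2 change of each subunit on the log2(TPM + 1) scale against its mean TPM over 9 libraries (log axis), by subcomplex, filled where the adjusted p was under 0.05; the dashed line is the median of all genes tested. Subunits below 100 TPM reach log2 changes near 1 with NFE2L1 (PSMD1 and PSMD12), and those above 300 TPM stay under 0.3.

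With NFE2L1DC, PSMA3, ADRM1 and PSMD11 rose and no subunit fell, against 2.06% and 1.54% of all genes tested, in a comparison that used the same 3 control libraries. Of the 33 changes 32 were positive (65.5% of all genes tested), with a median of 0.17 against 0.12 over all genes. In 11 subunits every NFE2L1DC library was above every control library (13.7% of all genes tested) and in none below (8.98%). The median log2 change was 0.17 in the alpha ring, 0.066 in the beta ring, 0.18 in the base and 0.39 in the lid. Median-of-ratios scaling left 21 of 33 changes positive, 1 of 7 in the beta ring, and PSMA3 as the only call; over all genes it moved the calls from 291 higher and 218 lower to 294 in all, of which 175 were lower. Without control replicate 3, 11 subunits passed (also PSMA4, PSMC1, PSMC6, PSMD1, PSMD6, PSMD7, PSMD12 and PSMD14), without NFE2L1DC replicate 2 only 1, and without any other single library none. These leave-out counts are given without the counts over all genes in the same fits, so they cannot be set against a general rise or fall in calls. In NFE2L1 against control, leaving out control replicate 3 raised the count over all genes from 1468 to 5055.

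PSMA3 was at 63.9, 55.2 and 61.8 TPM with NFE2L1DC, all above the control range given earlier, and rose 1.62-fold (log2 change 0.70 ± 0.15, limma adjusted p = 0.0383). ADRM1 was at 272, 294 and 304 TPM, likewise above every control, a 1.26-fold rise (log2 change 0.33 ± 0.076, limma adjusted p = 0.0491). PSMD11 was at 84.0, 69.9 and 79.1 TPM, above every control and partly within the NFE2L1 range, and rose 1.32-fold (log2 change 0.39 ± 0.087, limma adjusted p = 0.0456). PSMD1 had the largest log2 change, 0.78 ± 0.23, with 60.6, 45.9 and 45.8 TPM and no overlap, but did not pass (limma adjusted p = 0.101).

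Other low-level subunits gave values of the same sign that did not pass. PSMD12 was at 15.1, 19.5 and 17.6 TPM with NFE2L1DC (log2 change 0.66 ± 0.28), PSMC6 at 25.3, 22.7 and 16.7 TPM (0.59 ± 0.26) and PSMC1 at 66.3, 52.8 and 47.3 TPM (0.55 ± 0.20). All of these overlapped control replicate 3. PSMD6, at 44.2, 36.5 and 41.1 TPM, was above every control and just missed the threshold (log2 change 0.52 ± 0.13, limma adjusted p = 0.0565). PSMD14 was at 54.8, 44.4 and 40.5 TPM and SEM1 at 32.7, 44.5 and 33.5 TPM, with log2 changes of 0.46 and 0.40. PSMC4 was at 176, 175 and 177 TPM, the tightest group of any base gene here, above every control (log2 change 0.23, limma adjusted p = 0.0937).

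None of the catalytic genes passed with NFE2L1DC. PSMB5 was at 302, 296 and 206 TPM, PSMB6 at 369, 412 and 394 TPM and PSMB7 at 462, 488 and 479 TPM, all overlapping control, with log2 changes of 0.23, 0.066 and 0.044. The smallest changes were those of PSMC5 (-0.0015, with 153, 154 and 144 TPM), PSMB2 (0.0049, with 165, 211 and 172 TPM), PSMB4 (0.0076, with 627, 611 and 662 TPM) and PSMD8 (0.013, with 251, 268 and 268 TPM). In the alpha ring PSMA5 had the smallest change, at 152, 137 and 138 TPM (0.083). PSMA1 was at 125, 120.1 and 133 TPM, PSMA6 at 216, 154 and 154 TPM and PSMA7 at 604, 514 and 531 TPM, with a log2 change of 0.17 each. PSMA7 alone of these 3 was free of overlap with control.

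Set directly against each other, the 2 overexpressing lines gave no subunit that was called by limma at an adjusted p under 0.05, where 0.715% of all genes tested were higher with NFE2L1 and 0.0779% lower. At an unadjusted limma p under 0.05 there were 3 of the 33 subunits, beside 1156 of the 14118 genes tested. Of the 33 changes 27 were positive (63.1% of all genes tested), with a median of 0.11 against 0.059 over all genes, and 20 were positive after adjustment for GC content and length. In 6 subunits every NFE2L1 library was above every NFE2L1DC library (12.4% of all genes tested) and in 1, PSMD3, every one was below (5.55%). A p that misses the threshold does not show that the 2 forms act alike.

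The largest differences lay in different subcomplexes. PSMD7 in the lid was at 87.7, 84.4 and 70.7 TPM with NFE2L1DC, below every NFE2L1 library (log2 difference 0.52 ± 0.21, limma adjusted p = 0.55). PSMA4 was at 76.9, 88.0 and 90.5 TPM, also below every NFE2L1 library (log2 difference 0.47 ± 0.22, limma adjusted p = 0.63). PSMB2 (log2 difference 0.33 ± 0.13) and PSMA5 (0.29 ± 0.078) were the other genes of the core in which the 2 lines did not overlap. In the base, PSMC2 had the largest difference (0.42 ± 0.35), with 60.3, 44.7 and 47.3 TPM in the NFE2L1DC libraries and overlapping ranges. The 6 negative differences included those of PSMA2 (-0.13 ± 0.23, with 108, 73.9 and 87.2 TPM), SEM1 (-0.096 ± 0.12), PSMB3 (-0.046 ± 0.11, with 453, 481 and 482 TPM) and ADRM1 (-0.028 ± 0.076). NFE2L1 transcript was lower in the NFE2L1 line than in the NFE2L1DC line by a log2 difference of -0.92 (limma adjusted p = 0.228), with every NFE2L1 library below every NFE2L1DC library.

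Over the 528 pairs of subunits the median Pearson correlation across the 9 libraries was 0.47, and 67 pairs had a negative value. Within subcomplexes the medians were 0.60 in the alpha ring, 0.51 in the beta ring, 0.42 in the base and 0.52 in the lid, and between subcomplexes 0.45. These are descriptions over libraries that share their groups and scaling.

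The changes were also read by promoter match. With NFE2L1 the median log2 change was 0.30 in the 7 genes with a match, of which 3 rose, PSMD1 and PSMD12 among them, and 0.35 in the 21 genes with a window and no match, of which 7 rose. With NFE2L1DC the medians were 0.23 and 0.17. PSMB3 carries a match and was at 0.052 ± 0.11 with NFE2L1, and PSMD11 carries none and was at 0.56 ± 0.087. Over all genes tested with a window, the medians with NFE2L1 were 0.22 with a match and 0.20 without. Of these genes, 46 of 374 with a match rose and 802 of 8884 without.

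Genes that build, replace or regulate the proteasome were read from lists. Of 9 assembly chaperones, POMP alone rose, in both lines. POMP, which helps the beta ring mature, was at 48.1, 59.3 and 68.7 TPM in control, 99.6, 101 and 92.4 TPM with NFE2L1 and 89.7, 80.2 and 84.0 TPM with NFE2L1DC. The 3 groups did not overlap (log2 change 0.74 ± 0.12, limma adjusted p = 0.00708 with NFE2L1 and 0.53 ± 0.12, limma adjusted p = 0.0478 with NFE2L1DC). The call of POMP with NFE2L1DC held in 5 of 20 alternatives, all of the same sign, with adjusted p-values up to 0.278 in limma. The settings in which it was lost included median-of-ratios scaling, no filter, no variance trend and a fit of only the 2 groups compared. It was also lost with the replicate block, with or without GC and length correction, and without any 1 library other than control replicate 3.

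Of 8 inducible subunits and activators, 4 rose with NFE2L1 and none with NFE2L1DC. PSMB9, the inducible counterpart of PSMB6, was at 10.4, 9.49 and 8.21 TPM in control, 21.9, 26.8 and 23.6 TPM with NFE2L1 and 11.7, 13.4 and 13.3 TPM with NFE2L1DC. It rose 2.57-fold with NFE2L1 (log2 change 1.27 ± 0.13, limma adjusted p = 0.000543) and was the only gene of these proteasome lists called between the overexpressing lines (log2 difference 0.86 ± 0.13, limma adjusted p = 0.0171). The call between the lines held in 10 of 20 alternatives, all of the same sign, with adjusted p-values up to 0.202 in limma. It was lost under median-of-ratios scaling, GC and length correction, the replicate block and without any 1 library of the 2 lines. PSMB8, the inducible counterpart of PSMB5, rose from 17.1, 13.2 and 12.6 TPM to 22.4, 29.4 and 24.8 TPM (log2 change 0.80 ± 0.15, limma adjusted p = 0.0125). After median-of-ratios scaling PSMB8 did not pass (limma adjusted p = 0.0665). PSMB8 and PSMB9 overlap in the annotation, and reads of the 2 genes may not have been told apart. The activator subunit genes PSME2 and PSME3 rose by 0.45 and 0.32 on the log2 scale (limma adjusted p = 0.0219 and 0.0353), and neither passed after adjustment for GC content and length or after median-of-ratios scaling. None of 9 proteasome-associated enzymes and shuttle factors and none of 5 genes of NFE2L1 processing passed in either line by limma. The tissue-restricted subunit genes PSMA8 and PSMB11 were at or near 0 and were not tested.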

How the data were processed

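RNA-seq libraries, 3 per group, were assigned to groups by their GEO titles. The authors deposited 1 table of TPM values for 58174 genes in 9 columns. Per the submitters' processing notes, CASAVA and the GRCh38 build were used. The sources used here do not name the aligner, quantifier, annotation release, strandedness or filters. Group means were fitted to log2(TPM + 1) of the deposited values with limma 3.58.1 (R 4.3.3) and the variance trend, over 14118 genes with at least 1 TPM in at least 3 libraries. The 3 contrasts were tested 2-sided with Benjamini-Hochberg adjustment over all genes tested, at 0.05. The fit was also run on simulated data with independent noise, of the same spread in every library for a given gene. Those data lack the differences between libraries seen here, so they cannot show how the fit deals with them. Folds are ratios of mean TPM, whereas log2 changes are differences of mean log2(TPM + 1), so they need not match. The added 1 makes log2 changes of low genes smaller than they would be without it. Only the spread between these samples is measured, since the labels do not say that replicates were separate cultures. Coordinates, GC content and transcript length came from GENCODE release 29 (GRCh38), and promoters from RefSeq (GRCh38.p14). The stretch around 1 promoter match is not reported here.

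The members, lists, motifs and tests were chosen with earlier results of these data known; membership of the family follows subunit names, not values. Values in every library were given for subunits called in any contrast, the catalytic genes and PSMD14, and the highest and lowest level or change in each subcomplex; of related lists, up to 4 called genes were named. Alternatives covered scaling, pseudocount, filter, libraries in the fit, variance trend, library weights, a replicate block, GC and length correction, leaving out libraries, and counting PSMD4 with the lid. The GC and length correction removed from each library's log2 values a natural spline (5 degrees of freedom) on each property. Same-numbered samples of different groups had correlations of their deviations between -0.189 and 0.109, so replicate numbers were not taken as pairing.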

Additional observations from a re-analysis of the deposited data

How the results depend on the processing

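The counts of subunits called were sensitive to most settings tried, and no called subunit kept its call in all 20 alternatives, though none changed sign. In NFE2L1 against control (10 subunits called), median-of-ratios scaling, no filter and no variance trend each left 5, a fit of only the 2 groups compared left 6, array weights gave 19, and leaving out 1 library at a time gave 2 to 17. With the replicate number as a block, 6 subunits were called, though the numbers are not known to pair the samples. GC and length correction gave 8 without that block and 7 with it, and 4 and 2 in NFE2L1DC against control. In NFE2L1DC against control (3 called), median-of-ratios scaling left 1, no filter, only the 2 groups compared, no variance trend and the replicate block each left 0, array weights gave 12, and leaving out 1 library gave 0 to 11. Against control replicate 3 alone, chosen after seeing the data, both counts were 0. Most counts over all genes moved with the same settings, to 5962 and 3322 with array weights and 872 and 198 with the replicate block, from 1468 and 509.

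Median-of-ratios scaling lowered the median log2 changes with NFE2L1 to 0.16 in all subunits, 0.084 in the 20S core, 0.17 in the alpha ring, -0.0011 in the beta ring, 0.15 in the base and 0.38 in the lid. With NFE2L1DC it gave 0.059 in all subunits, 0.060 in the alpha ring, -0.046 in the beta ring and 0.071 in the base. GC and length correction, with or without the replicate block, gave 0.14 in all subunits, 0.11 in the 20S core, 0.15 in the alpha ring and 0.29 in the lid with NFE2L1, 0.23 in the lid with NFE2L1DC, and -0.0066 in the beta ring between the 2 lines. Without control replicates 1 and 2 the medians with NFE2L1 were 0.24 in all subunits, 0.24 in the alpha ring and 0.27 in the lid, and with NFE2L1DC 0.066 in the alpha ring and 0.22 in the lid. With PSMD4 counted in the lid, the lid median with NFE2L1 was 0.46, the ratio of 20S to base was 2.12, 1.99 and 2.00 and that of 20S to lid 2.26, 2.19 and 2.22 in control, NFE2L1 and NFE2L1DC. Among uncalled subunits, 14, 19 and 14 changed sign in at least 1 alternative in the 3 comparisons. PSMD11 kept its call with NFE2L1 in 16 of 20 alternatives, and PSMA1, ADRM1 and PSMD12 in 7 each. The cause was not tested. Depth is unknown, so its limit cannot be stated.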
